A study of Mus musculus with 9 samples.

Results

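A total of 795 bidirectional regions had more nascent transcription at 15 min and again at 30 min of Firre induction than before it, out of 174289 regions counted and 32883 with a mean count of at least 20 over the 9 libraries. They were chosen from their counts in 600 bp windows. Counts were scaled to counts per 1e6 counts of the library (CPM). A member had a higher CPM in all 6 libraries of 15 and 30 min than in all 3 of 0 min (met by 6.57% of the 32883), a mean at least 1.5 times the 0 min mean at both times, and a 15 min mean below 1.4 times the 30 min mean. The windows over Firre and the adjoining Gm35612 were left out. Because the members were picked on these differences, their own differences, and the calls they received in the fit over all windows, are given below as a description and not as tests. Tests concern windows that are no members: those near the members, the ends of the genes that hold them, and the ends of listed genes within 100 kb of a member.

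The study measured nascent RNA by PRO-seq, a nuclear run-on in which engaged RNA polymerases add biotin-labelled nucleotides and the marked 3′ ends are sequenced. The cells were mouse embryonic stem cells (mESC) without their own Firre gene (Firre KO) that carry an inducible Firre transgene, and all 3 groups share this genotype. The groups were no doxycycline at 0 min, and doxycycline at 1 ng/μL for 15 min and for 30 min, with 3 libraries each. The titles of 0 min libraries 1 and 3 include the word dox and that of library 2 does not, although all 3 are labelled 0 min. The cells were grown with LIF and the inhibitors PD0325901 and CHIR99021, which hold mouse stem cells in a naive state. Cells lacking the transgene were not given the drug among these samples, so doxycycline and Firre RNA cannot be told apart. The labels do not state separate cultures for replicates, so p-values cover only how these libraries differ, and that spread may be technical.

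Firre is a long non-coding RNA transcribed from the X chromosome and retained in the nucleus, where it is known for repeats that bind the protein HNRNPU. Bidirectional regions are sites where polymerase starts in both directions. Promoters of genes are bidirectional in mammals, and so are active enhancers, whose short transcripts are made and lost quickly and are seen well by run-on assays. A region inside a gene also counts polymerases passing through that gene, so a window inside a gene does not separate its own initiation from that of its host.

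Library totals ran from 3813365 to 5980366 counts, at which 3 counts equal 0.502 to 0.787 CPM. Summed over its 10 windows, the Firre and Gm35612 signal ran from 2.72 to 6.10 CPM without doxycycline, from 302 to 383 CPM after 15 min and from 870.1 to 898 CPM after 30 min. Windows at 8 of 10 embryonic stem cell marker genes summed to 1799 to 1992 CPM over the 9 libraries, while the 1 of 5 feeder fibroblast markers with a window stayed at or below 0.741 CPM. Of other cell types, the 2 neuroectoderm markers summed to 6.46 to 12 CPM, the 1 of 3 mesoderm markers with a window had 1.18 to 4.21 CPM, the 2 of 4 primitive endoderm markers with a window summed to 0.452 to 2.47 CPM, and the 2 trophectoderm markers had no window. Library 3 of 15 min stood apart from the other 8 on the second principal component (85.6, against -55.1 to 16.5 in the others; 13.9% of the variance). It held the lowest of the 15 min values in 474 of the 795 members. Without it the same rule chose 939 windows, 731 of them among the 795. Library 2 of 0 min lay at the other end of the second component (-55.1, the next lowest being -26.9). On the first component (27.6% of the variance) it had -37.4, against -80.7 and -77.9 in the other 0 min libraries. It held the highest of the 0 min values in 378 members. Without library 2 of 0 min the rule chose 1346 windows, of which 743 were among the 795. Library 1 of 0 min held the lowest of the 0 min values in 399 members. Without it the rule chose 895 windows, 641 of them among the 795, the fewest kept in any of the 9 omissions. Whichever of the 9 libraries was left out, 377 members (47.4%) were chosen again.

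The sequences that follow are those at which a known product can be named. One member window, chr3:127544794-127545393, covers the start of the lncRNA gene Gm51018 and wholly contains the miR-302b hairpin, the first of the miR-302 cluster. A pair of members lies upstream of the miR-290 to miR-295 cluster on chromosome 7. Both clusters encode miRNAs that are abundant in pluripotent mouse cells and shorten the G1 phase of their cell cycle, the miR-290 family in naive cells and the miR-302 family in primed ones. The mature RNAs read here for the 2 clusters do not cover every arm of every hairpin, and 5 of those read share 1 seed. These are printed from RefSeq (GRCm38.p6), 5′ to 3′, with the seed (bases 2 to 8) in capitals.
mmu-miR-302b-3p: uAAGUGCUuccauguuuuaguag
mmu-miR-302d-3p: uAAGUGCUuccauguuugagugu
mmu-miR-291a-3p: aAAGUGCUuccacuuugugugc
mmu-miR-294-3p: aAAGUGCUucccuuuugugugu
mmu-miR-295-3p: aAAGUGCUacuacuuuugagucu
The seed AAGUGCU is thus found both in miRNAs beside the member on chromosome 3 and in miRNAs downstream of the members on chromosome 7.

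RefSeq promoters (250 bases before to 50 after the start, GRCm38.p6) were matched for 14 gene starts that lie in a member window, 11 of them wholly inside it. They were searched on both strands for 5 short motifs. The sequence TATAAA is the core of the promoter element bound by TBP. The sequence CCGGAA is the core of sites of ETS factors, and GGCGCC is a palindrome rich in G and C. The canonical E-box of Myc and its relatives reads CACGTG. The element bound by the factor NF-Y reads CCAAT. Matches on the strands can overlap, and the capitals mark them. The promoters of Gm51018 (chr3:127544839-127545138, + strand), of Id3 (chr4:136143572-136143871, + strand), which encodes an inhibitor of DNA binding by basic helix-loop-helix factors and is a target of BMP signalling, and of Trh (chr6:92244601-92244900, - strand), the precursor of thyrotropin-releasing hormone, are shown because each lies wholly in a member window.
Gm51018: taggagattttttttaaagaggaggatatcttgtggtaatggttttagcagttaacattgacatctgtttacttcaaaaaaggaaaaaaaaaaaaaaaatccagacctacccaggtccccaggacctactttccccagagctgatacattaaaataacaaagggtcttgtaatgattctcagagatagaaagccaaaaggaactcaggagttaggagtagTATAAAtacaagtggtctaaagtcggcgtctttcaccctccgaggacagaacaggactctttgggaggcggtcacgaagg
Id3: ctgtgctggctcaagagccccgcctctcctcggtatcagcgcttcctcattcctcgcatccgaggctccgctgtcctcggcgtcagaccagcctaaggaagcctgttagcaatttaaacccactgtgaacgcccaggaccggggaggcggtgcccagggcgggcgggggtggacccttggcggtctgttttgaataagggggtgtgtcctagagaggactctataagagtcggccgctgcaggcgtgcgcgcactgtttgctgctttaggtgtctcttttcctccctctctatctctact
Trh: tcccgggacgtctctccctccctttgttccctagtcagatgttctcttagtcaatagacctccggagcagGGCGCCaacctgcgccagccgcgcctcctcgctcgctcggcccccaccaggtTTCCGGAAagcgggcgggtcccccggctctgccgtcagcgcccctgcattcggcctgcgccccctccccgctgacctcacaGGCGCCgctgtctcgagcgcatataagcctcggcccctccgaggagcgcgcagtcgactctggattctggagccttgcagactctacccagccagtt
TATAAA was found in 2 of the 14 promoters, against 13.6% of all 32851 RefSeq promoters, CCGGAA in 5 (14.9% of all), GGCGCC in 2 (11.9%), CACGTG in 1 (7.15%) and CCAAT in 3 (37.4%). GC content ran from 40.3% at Gm51018 to 67.0% at Trh, beside a median of 52.7% over all promoters. The sequence of the other member windows was not analysed here.

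The members were mostly weakly transcribed windows away from promoters. The median member had 5.82 CPM before induction, 10.9 CPM after 15 min and 10.6 CPM after 30 min, all windows having the same length. For comparison, 408 windows were raised at 15 min by the same limits but had a 30 min mean below 1.2 times the 0 min mean ("raised at 15 min only"). These had medians of 7.31, 13.2 and 7.45 CPM in the same order of times, and the 32883 windows had 12.9, 12.3 and 12.5 CPM. Summed over the members, the signal was 8341, 10017 and 9576 CPM in the 0 min libraries, 17367, 18528 and 15309 CPM in the 15 min libraries and 16683, 15724 and 16252 CPM in the 30 min libraries. The lowest library after induction was therefore above the highest before it, as the choice of members requires.

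**Figure D1:**
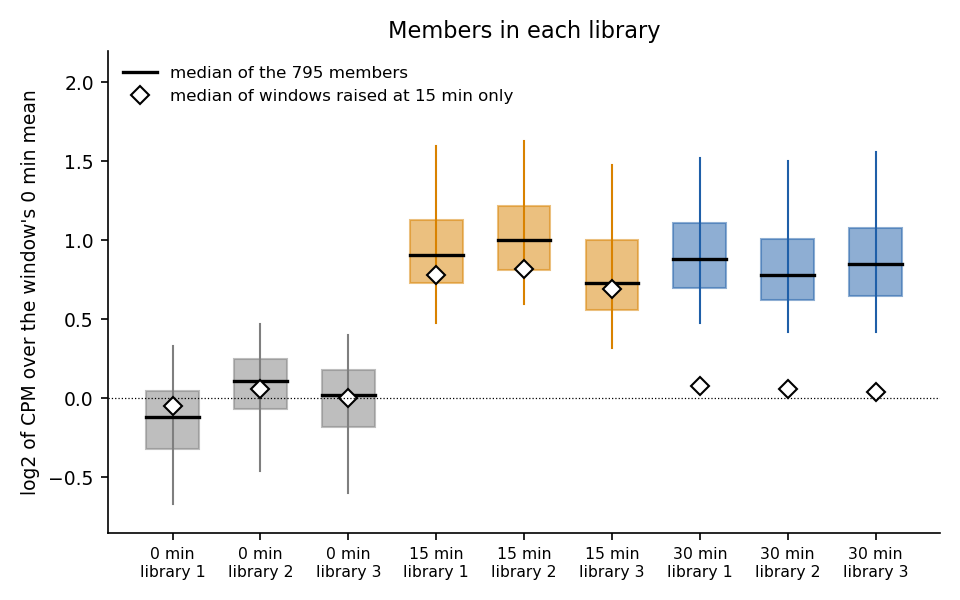
Distribution of the 795 members in each of the 9 libraries (x axis), as log2 of a window's CPM over its own 0 min mean (y axis); boxes span the quartiles, lines the 5th to 95th percentile, bars mark medians, and diamonds the median of the 408 windows raised at 15 min only. Member medians lie between 0.73 and 1.00 in the 15 min libraries and between 0.78 and 0.88 in the 30 min libraries, whereas the diamonds lie at 0.04 to 0.08 at 30 min.

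The ratio of 15 over 0 min had a median of 1.85 and ran from 1.5 to 6.59, and that of 30 over 0 min a median of 1.77, from 1.5 to 5.59. The 15 over 30 min ratio had a median of 1.04, with 684 members (86.0%) between 0.8 and its inverse and 300 members (37.7%) higher at 30 than at 15 min. At both times 162 members were at least 2-fold and 13 at least 3-fold above 0 min. The spread between libraries depended on the level. The largest coefficient of variation within a time had a median of 29.3% in the 441 members below 10 CPM, 21.5% in the 296 from 10 to 50 CPM and 16.0% in the 58 at or above 50 CPM.

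In the fit over all 54299 tested windows (edgeR's quasi-likelihood test, Benjamini-Hochberg adjusted p under 0.05), 593 members (74.6%) were called higher at 15 min, where 4.29% of all tested windows were, and 340 (42.8%) at 30 min, where 1.24% were. Of all tested windows 3.96% were called lower at 15 min and 0.497% at 30 min. Both calls were made for 321 members and neither for 183. These counts restate the choice of members. Members were 593 of the 2331 higher calls at 15 min (25.4%) and 340 of the 675 at 30 min (50.4%). Leaving out library 1 of 0 min gave 325 members called at 15 min, and leaving out libraries 1 or 2 of 15 min gave 388 or 338. For 30 min, leaving out libraries 1 or 3 of 0 min gave 79 or 210, and omitting the 30 min libraries in turn gave 151, 168 and 135. Between 30 and 15 min 0.214% of all tested windows were called higher and 0.490% lower (0.694% lower among non-members outside genes and 0.348% at gene ends). The rule limited the ratio of these times, so no call of a member is given for this comparison.

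**Figure D2:**
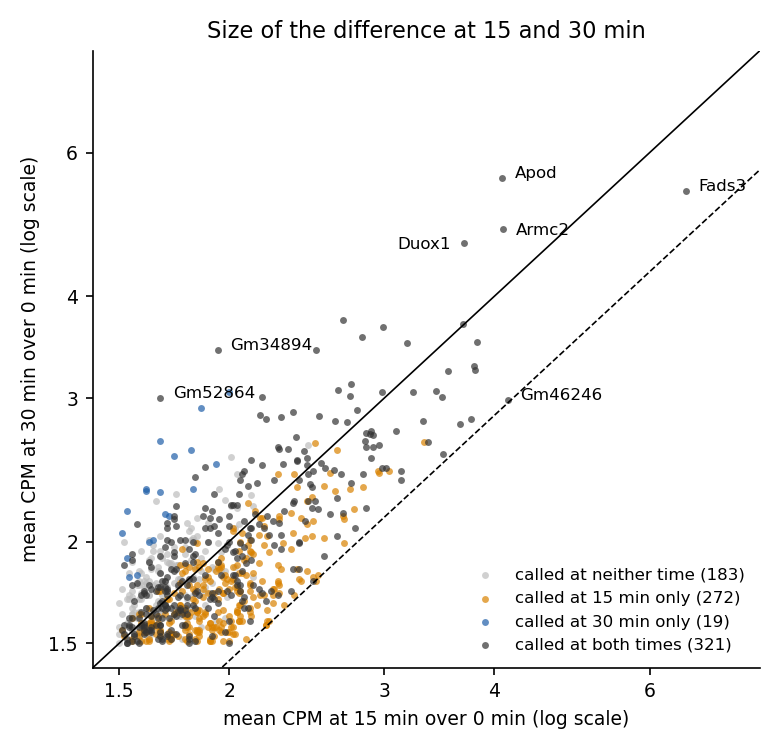
Mean CPM at 15 min over 0 min (x) against 30 min over 0 min (y) on log scales, 1 point per member, coloured by its calls in the fit over all windows; the solid line marks equal ratios and the dashed line the limit of 1.4 on the 15 over 30 min ratio. Fads3 (6.59 and 5.39) and Apod (4.08 and 5.59) lie farthest out, and Gm52864 (1.67 and 3.00) lies far above the line of equal ratios.

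The member with the highest 15 over 0 min ratio lay inside Fads3, a gene of the fatty acid desaturase family (chr19:10051669-10052268). It had 3.08, 5.42 and 6.29 CPM at 0 min, 28.6, 38.8 and 30.2 CPM at 15 min and 24.5, 25.6 and 29.7 CPM at 30 min. The groups of 15 and 30 min overlapped, and both were several times above every 0 min library.

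The highest 30 over 0 min ratio was inside Apod, the gene of apolipoprotein D, a carrier of small lipids. This window (chr16:31300787-31301386) had 3.08, 3.39 and 4.98 CPM at 0 min, 17.9, 16.3 and 12.5 CPM at 15 min and 23.7, 23.0 and 17.3 CPM at 30 min. Inside Armc2, an armadillo repeat gene needed for sperm flagella, the window had 3.08, 2.71 and 3.15 CPM, then 12, 12.9 and 11.6 CPM, then 12.4, 14.5 and 16.4 CPM (chr10:41997110-41997709). In both windows the means were higher at 30 than at 15 min, and the ranges of these times overlapped. Inside Duox1, a hydrogen peroxide-producing oxidase, 1 of the 0 min libraries had 0.226 CPM, below the CPM of 3 counts, and the others 2.54 and 2.10 CPM. After induction the 15 min libraries had 6.86, 5.89 and 5.19 CPM and the 30 min libraries 4.26, 10.4 and 7.94 CPM there.

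The other members with the largest ratios had 0 min means of 1.49 to 2.85 CPM, and their ratios therefore rest on few reads. They lay inside Pid1 (3.68 and 3.70 at 15 and 30 min over 0 min), Lonrf2 (3.79 and 3.28) and Sh2d4b (3.80 and 3.25), and outside genes near Xpnpep2 (3.82 and 3.51), Gm46246 (4.14 and 2.98), Gm35552 (3.54 and 3.24), Gm40304 (3.18 and 3.50) and Rundc3b (2.99 and 3.67).

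The 58 most transcribed members had median ratios of 1.69 at 15 min and 1.61 at 30 min. The highest level was at a window 115 kb from the lncRNA gene 4930598F16Rik (chr1:95830753-95831352), with 182, 258 and 221 CPM at 0 min, 379.7, 486 and 322 CPM at 15 min and 368, 315 and 330.2 CPM at 30 min. Inside Dclk2, a doublecortin-like kinase (chr3:86841427-86842026), a window had 128, 155 and 165 CPM, then 279.7, 303 and 275 CPM, then 257, 255 and 254 CPM. In both windows the 15 min mean was above the 30 min mean. The opposite order was found at Fblim1, a filamin-binding adaptor gene, downstream of which a member had 90.8, 136 and 125 CPM at 0 min, 163, 188 and 186 CPM at 15 min and 208, 215 and 235 CPM at 30 min.

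The tightest member by its spread within each time lay inside Camk2b, a calmodulin-dependent kinase gene (chr11:6038640-6039239). It had 32.1, 33.4 and 33.6 CPM at 0 min, 59.9, 59.9 and 55.7 CPM at 15 min and 51.9, 53.4 and 50.9 CPM at 30 min, with a largest coefficient of variation of 4.14%. A window 15.0 kb downstream of Cops8, a COP9 signalosome subunit, combined a low spread with ratios of 2.45 and 2.48: 25.6, 28.5 and 29.6 CPM at 0 min, 73.4, 64.0 and 67.5 CPM at 15 min and 68.4, 66.5 and 72.7 CPM at 30 min. The ranges of 15 and 30 min overlapped at Cops8, and at Camk2b all 30 min values were below all 15 min values.

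**Figure D3:**
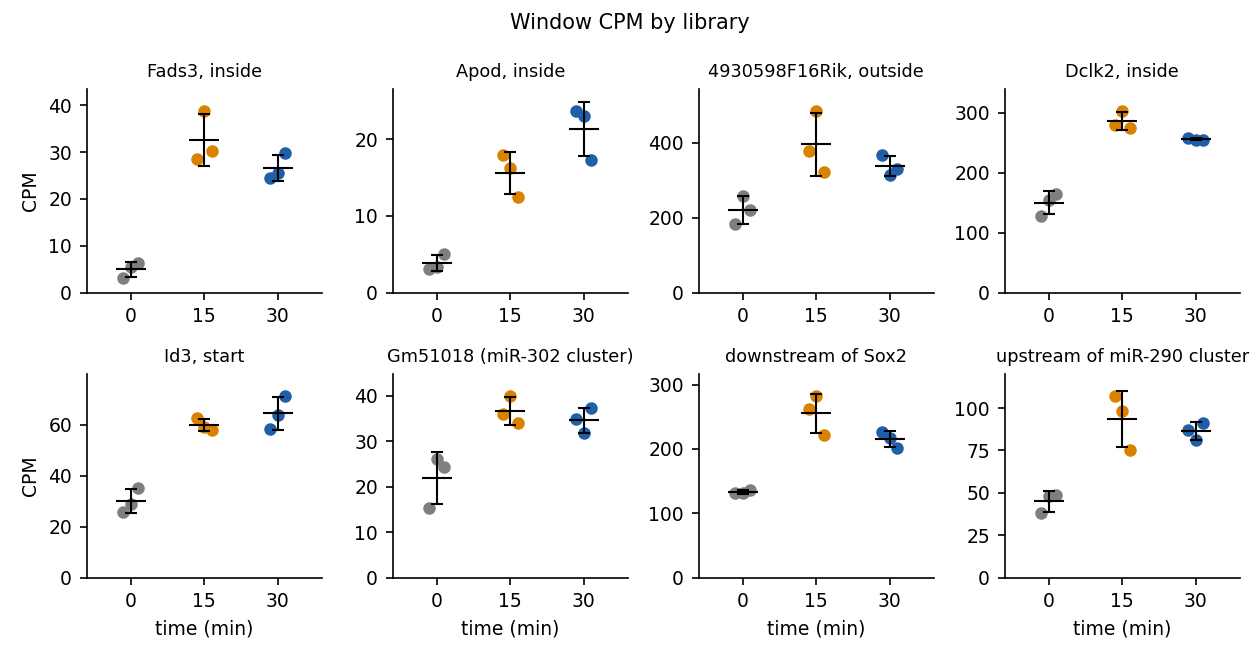
CPM (y axis, from 0) by time in minutes (x axis) for 8 member windows; points are the 3 libraries of a time and the bars their mean and SD. In every panel all 15 and 30 min points lie above all 0 min points, as the choice of members requires, and the ranges of 15 and 30 min overlap in 7 of the 8 panels, all but Dclk2.

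By position, 484 members (60.9%) lay more than 1 kb from any gene, against 53.9% of the windows raised at 15 min only and 30.7% of all 32883 windows. Windows inside a gene and over 1 kb from its ends were 258 members (32.5%), against 31.9% and 33.2%. Windows within 1 kb of a gene's start or finish were 53 members (6.67%), against 14.2% and 36.1%. These shares were not tested. Relative to library totals, all windows also shifted by class. Their median ratios of 15 and 30 min over 0 min were 1.11 and 1.06 outside genes. They were 0.976 and 0.994 inside genes, and 0.883 and 0.918 at gene ends. The same fold limit was used in all classes, so it lay farther above the median window at gene ends than outside genes. Whether the shares of members differ beyond this shift was not tested. Members had lower levels than all windows in each class. Their 0 min medians were 5.44 CPM outside genes, 6.56 CPM inside genes and 6.73 CPM at gene ends. Those of all 32883 windows were 9.27, 10.9 and 21.1 CPM in the same order. A limit of 0.5 kb in place of 1 kb left 3.77%, 9.80% and 28.2% at gene ends.

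**Figure D4:**
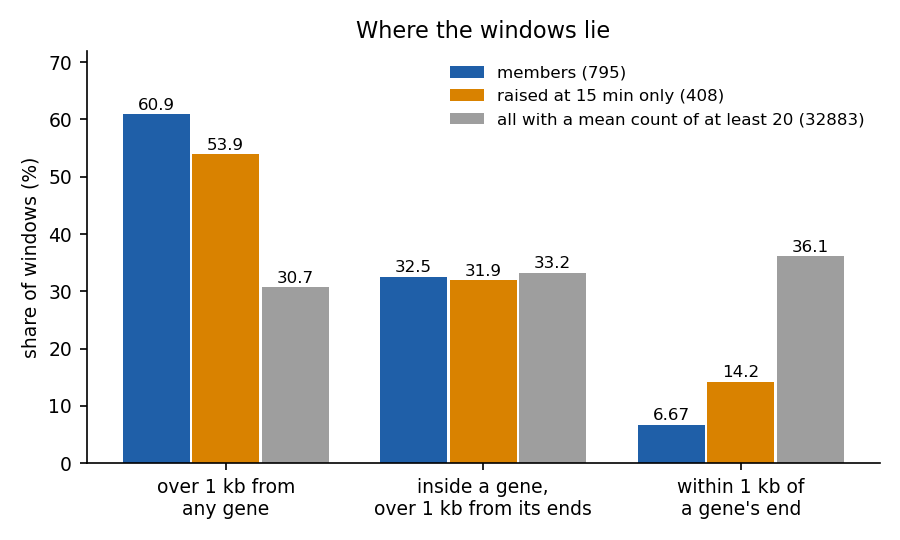
Share of windows (y axis, %) in 3 classes of position for the 795 members, the 408 windows raised at 15 min only and the 32883 windows with a mean count of at least 20. Members lie outside genes in 60.9% and at gene ends in 6.67%, against 30.7% and 36.1% of all windows. The shares are not corrected for the higher median ratios of all windows outside genes than at gene ends.

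Members outside genes lay on both sides of their nearest gene. Of the 364 whose nearest gene has a known strand, 189 (51.9%) were downstream of it, as were 49.3% of all such windows, whereas 116 of 173 windows raised at 15 min only (67.1%) were. Within 10 kb of the gene 83 members were downstream and 65 upstream, against 80 and 23 of the windows raised at 15 min only. The median distance to the nearest gene was 13.4 kb in members, 7.34 kb in windows raised at 15 min only and 12.3 kb in all windows. The bidirectional region behind a member had a median width of 1016 bp, against 1121 bp and 742 bp. Members inside genes lay in long genes, with a median length of 74.9 kb, against 50.1 kb and 54.6 kb.

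Of the 53 members at gene ends, 28 (52.8%) were at lncRNA genes. The share was 25.9% in windows at gene ends raised at 15 min only and 11.7% in all windows at gene ends. Most of the 12 with the largest ratios were at lncRNA genes. Gm39485 had 12.5, 13.3 and 22.8 CPM at 0 min, 43.1, 48.8 and 40.1 CPM at 15 min and 48.7, 37.6 and 49.8 CPM at 30 min. Gm52864 had 6.52, 6.33 and 7.34 CPM, then 11.7, 12.4 and 9.67 CPM, then 19.3, 20.8 and 20.6 CPM, with no overlap between any of the 3 times (chr6:85115061-85115660). The other 3 members with the highest 30 over 15 min ratio lay inside Gm34894 (7.67 and 13.6 CPM at 15 and 30 min) and near Nkx1-1, a homeobox gene (7.74 and 12.3 CPM), and Platr27, one of the pluripotency-associated transcript genes (6.87 and 10.8 CPM).

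Among protein-coding genes, the window at the start of Shf, an SH2 domain adaptor (chr2:122369531-122370130), had 27.5, 21.9 and 32.5 CPM at 0 min, 66.2, 66.1 and 63.9 CPM at 15 min and 73.2, 69.0 and 63.8 CPM at 30 min. It belonged to a group of 3 members in 37.5 kb with the window inside Duox1. Id3 had members at both its ends. The window at its start had 25.9, 29.1 and 35.1 CPM at 0 min, 62.7, 59.3 and 58.0 CPM at 15 min and 58.5, 63.8 and 71.3 CPM at 30 min. The window at its finish had 16.9, 30.3 and 31.2 CPM, then 52.5, 51.9 and 45.8 CPM, then 59.1, 53.9 and 66.6 CPM. A further member past the gene had means of 14.7, 27.6 and 26.8 CPM, so all of these windows, across 4.77 kb, were higher after induction. The Trh start had means of 5.39, 9.36 and 11.9 CPM.

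At the miR-302 cluster the member window had 15.4, 26.0 and 24.4 CPM at 0 min, 36.0, 39.9 and 34.0 CPM at 15 min and 34.8, 31.7 and 37.2 CPM at 30 min. Its ratios of 1.67 and 1.58 lie near the lower limit of the rule. Of the 3 tested non-member windows at the same gene, up to 2.35 kb past the middle of the cluster, 1 (chr3:127547042-127547641) rose at 15 min, by a log2 difference of 1.06 ± 0.29 (adjusted p = 0.0245, edgeR), and the other 2 differed by 0.67 ± 0.26 and 0.88 ± 0.38 (adjusted p = 0.106 and 0.165). That call was lost on omitting 0 min library 1 or either of 15 min libraries 1 and 2, and no window of the 3 was called at 30 min, where they differed by 0.55 to 0.73.

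Upstream of the miR-290 to miR-295 cluster, a window at chr7:3206278-3206877 had 38.1, 48.3 and 49.0 CPM at 0 min, 107, 98.1 and 75.0 CPM at 15 min and 87.3, 81.0 and 91.4 CPM at 30 min. A window at chr7:3211817-3212416 had 55.6, 71.2 and 75.5 CPM, then 118, 134 and 95.8 CPM, then 121, 110.1 and 104 CPM. Another window of this area that is no member, chr7:3201012-3201611, rose at both times: it had 80.1, 89.9 and 80.2 CPM at 0 min, 153, 155 and 136 CPM at 15 min and 119, 129.8 and 123 CPM at 30 min. Its log2 differences were 0.86 ± 0.11 at 15 min and 0.59 ± 0.11 at 30 min (edgeR, adjusted p = 1.3e-05 and 0.0051), and both calls held without any single library. Tested windows 10.8 to 20.9 kb past the middle of the cluster had at most 9.70 CPM in any library, with no call. In all, 10 of the 795 members had a miRNA hairpin within 10 kb, among them let-7i near Mon2 and miR-202 near Gm16201. Hairpins were not counted near the other windows, so this number has no share to be set against.

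Near Sox2, a transcription factor of the pluripotency core, 3 members lay 95.2, 105 and 109.5 kb downstream of the gene's start, in the area where a distal enhancer of Sox2 in mouse stem cells is known. The strongest (chr3:34759215-34759814) had 131, 132 and 136 CPM at 0 min, 262, 282 and 222 CPM at 15 min and 226, 217 and 202 CPM at 30 min. The next (chr3:34754377-34754976) had 41.1, 48.8 and 47.7 CPM, then 73.2, 84.0 and 73.8 CPM, then 75.4, 80.6 and 75.9 CPM. The window at an end of Sox2 itself had 277, 257 and 301 CPM at 0 min, 295, 269 and 333 CPM at 15 min and 262, 297 and 290.2 CPM at 30 min. It differed by a log2 of 0.14 ± 0.10 and 0.04 ± 0.10 (adjusted p = 0.464 and 0.893, edgeR), and its groups overlapped at both times.

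Members within 100 kb of a gene start were counted for 18 gene lists of pathways, complexes and cell states, using the RefSeq starts of 177 of their 229 genes. They numbered 32 of 795 (4.03%), against 5.39% of the windows raised at 15 min only and 4.22% of all windows. For 3 pluripotency lists together, with starts for 28 of 40 genes, they numbered 12 (1.51%), against 0.490% and 0.681%. The 12 include 4 near Foxd3, a forkhead factor of pluripotent and neural crest cells, and 1 near Tcf3, which here is the gene of the E2A proteins and not Tcf7l1, once called by the same symbol. The others near the 3 pluripotency lists lay near Nanog (2), Sox2, Pou5f1, Utf1, Dnmt3a and Fgf5 (1 each). A window counted here need not belong to the listed gene. The one downstream of Nanog lay inside Slc2a3, that of Utf1 inside Gm16201 and that of Fgf5 inside Cfap299. Each further list is given with its share of the members and then of all 32883 windows. BMP targets had 5 (0.629% against 0.122%), near Id3 and Id4, and FGF-ERK feedback genes 3 (0.377% against 0.161%), near Spry2 and Dusp6. The p53 targets had 3 (0.377% against 0.271%), near Gadd45a, Mdm2 and Sesn1, and YAP and SRF targets 2 (0.252% against 0.225%), so both were nearer to the share over all windows. Below that share were the Polycomb group with 2 near Jarid2 and Suz12 (0.252% against 0.447%), genes of polymerase II elongation with 2 (0.252% against 0.660%), LIF-STAT3 targets with 1 (0.126% against 0.280%), nuclear lncRNA genes with 1 (0.126% against 0.192%) and the nuclear architecture list, which holds Hnrnpu, with 1 (0.126% against 0.237%). No member was counted near the starts used for immediate early genes (12 of 16 genes, 0.265% of all windows), heat shock genes (9 of 12, 0.265%), the integrated stress response (15 of 15, 0.328%), WNT targets (8 of 12, 0.122%), the Nodal pathway (4 of 9, 0.122%), naive pluripotency (10 of 15, 0.179%) and the reported Firre contact genes (5 of 5, 0.170%). With 795 members, these shares correspond to few windows, and none was tested. They count windows and not separate loci. The BMP count includes 3 windows within 4.77 kb at Id3, and the pluripotency count 4 within 38.9 kb around Foxd3. The 2 windows of the polymerase II list lay at Rab3gap1 and at Gm51018.

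Members near list genes whose starts were not among those used are outside these counts, unless another listed start lies within 100 kb. One lay 19.5 kb from Myc, an immediate early transcription factor gene, with 3.26, 2.71 and 1.31 CPM at 0 min, 6.86, 4.94 and 4.25 CPM at 15 min and 6.48, 5.75 and 8.41 CPM at 30 min. Another lay 11.7 kb from Klf5, a Kruppel-like factor of naive pluripotency, with 25.2, 26.2 and 27.5 CPM, then 38.1, 53 and 36.1 CPM, then 43.3, 43.4 and 42.3 CPM. A window 10.6 kb from Dppa3, a gene of the maternal and naive state, had 12.3, 12.7 and 11 CPM, then 29.6, 20.0 and 17.0 CPM, then 20.0, 20.9 and 17.1 CPM. The Dppa3 window is the same one that was counted above for Nanog, as it lies 66.7 kb upstream of the Nanog start. The ranges of 15 and 30 min overlapped in all of these windows.

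Of the list genes near a member, 16 had a tested window of their own at a gene end that is no member. Such a window covers 600 bp at an end of its gene and does not measure the rest of it. Ends that met the rule are members and could not be among them, as at Id3, where the windows at both ends are members. None was called higher or lower at 15 or 30 min by edgeR or DESeq2. At an unadjusted p under 0.05 (edgeR), 1 was higher and 0 lower at 15 min, and 1 higher and 1 lower at 30 min. Their median log2 differences were -0.02 and 0.06. Over all tested windows at gene ends, members left out, 1.55% were called higher and 8.07% lower at 15 min, and 0.301% and 0.782% at 30 min. At Nanog, a homeodomain factor of the pluripotency core with members 66.7 kb upstream and 63.1 kb downstream, the gene's own window differed by -0.13 ± 0.10 at 15 min and -0.02 ± 0.10 at 30 min (edgeR, adjusted p = 0.445 and 0.944). At Jarid2, a cofactor of Polycomb repressive complex 2, the member 7.92 kb upstream had 25.0, 19.4 and 31.2 CPM at 0 min, 57.2, 55.1 and 48.4 CPM at 15 min and 48.7, 46.7 and 56.3 CPM at 30 min, while the gene's own window differed by 0.23 ± 0.17 and 0.07 ± 0.17 (adjusted p = 0.428 and 0.895). At Foxd3 the own window differed by 0.16 ± 0.23 and 0.39 ± 0.23 (adjusted p = 0.733 and 0.442).

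Some members lay close together along the genome. Groups were not counted among the other windows, so whether members are grouped more than those was not tested. While 543 had no other member within 50 kb, 252 fell into 108 groups, 79 of 2 members, 22 of 3 and 7 of 4. A run of 4 neighbouring windows near Purg, a gene of the purine-rich element binding family, spanned 3.88 kb and had the highest ratios of these 7 groups. Their sum was 16.9, 23.3 and 20.7 CPM at 0 min, 53.2, 54.9 and 52.4 CPM at 15 min and 54.6, 53.4 and 51.6 CPM at 30 min. A group downstream of Gng2, a G protein gamma subunit gene, summed to 25.0, 36.4 and 29.1 CPM, then 64.4, 73.7 and 71.5 CPM, then 66.1, 61.5 and 58.6 CPM.

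The 4 members inside Cdh3, the gene of P-cadherin, spanned 11.2 kb and summed to 30.8, 40.7 and 33.0 CPM at 0 min, 70.9, 76.2 and 63.0 CPM at 15 min and 74.7, 73.8 and 73.4 CPM at 30 min. Those nearest to Prex2, a Rac exchange factor gene, summed to 15.6, 17.4 and 17.6 CPM, then 41.3, 35.7 and 30.2 CPM, then 34.6, 29.8 and 32.9 CPM. The other 3 groups of 4 lay near Gm38791, Foxd3 and A230028O05Rik, with ratios from 1.55 to 2.29. Windows of a group can lie in 1 transcribed unit and are not separate measurements of a locus; 6 members overlapped another member.

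The X chromosome, which carries Firre, held 27 members (3.40%), against 2.94% of the windows raised at 15 min only and 3.28% of all windows. The largest ratios on it were at the window near Xpnpep2, a membrane-bound aminopeptidase gene, with 1.81, 1.58 and 1.31 CPM at 0 min, 6.19, 6.84 and 4.95 CPM at 15 min and 7.78, 5.01 and 3.74 CPM at 30 min. All 15 and 30 min values lay above the 0 min values, and those of 15 and 30 min overlapped. The window near Cldn34c1 lies in a family of near-identical genes, where reads may be split between copies.

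Windows next to members, which the rule did not choose, were mostly higher too when called. Of 1368 tested windows 0.6 to 10 kb from a member (next to 620 members), 175 (12.8%) rose and 6 fell at 15 min, where 3.23% of all tested non-members were called higher and 4.02% lower. At 30 min 51 (3.73%) rose and 2 fell, where 0.609% and 0.505% were. Among non-members outside genes the share called higher was 5.00% at 15 min and 0.955% at 30 min. The median log2 difference of these 1368 windows was 0.40 at 15 min and 0.36 at 30 min, beside 0.02 and -0.01 over all tested non-members and 0.19 and 0.11 over those outside genes. A neighbour can lie in the same transcribed unit as its member and shares its libraries, so it is a separate count but not a separate sample.

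The share declined with distance at 15 min, and at 30 min beyond 5 kb. At 15 min 20.2% of windows 0.6 to 2 kb away were called higher, 12.9% from 2 to 5 kb, 7.46% from 5 to 10 kb, 4.86% from 10 to 20 kb and 2.89% beyond 100 kb. At 30 min the shares were 3.83%, 4.38%, 3.06%, 1.84% and 0.496% over the same distances. The neighbours' counts of higher calls depended on single libraries. At 15 min omitting 0 min library 1 gave 65, and omitting libraries 1 or 2 of 15 min gave 93 or 72. At 30 min omitting libraries 1 or 3 of 0 min gave 8 or 28, omitting the 30 min libraries in turn gave 12, 12 and 16, and omitting 15 min library 3 gave 83. The 6 that fell at 15 min became 1 and 12 on omitting 15 min libraries 1 and 3, and the 2 at 30 min became 0 on omitting 0 min library 3 or 30 min libraries 2 or 3, and 1 on omitting 30 min library 1. In each of the 9 omissions the share among neighbours was above that among all tested non-members, at 4.49% to 14.7% against 1.32% to 3.97% at 15 min and 0.553% to 5.63% against 0.0518% to 0.975% at 30 min.

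**Figure D5:**
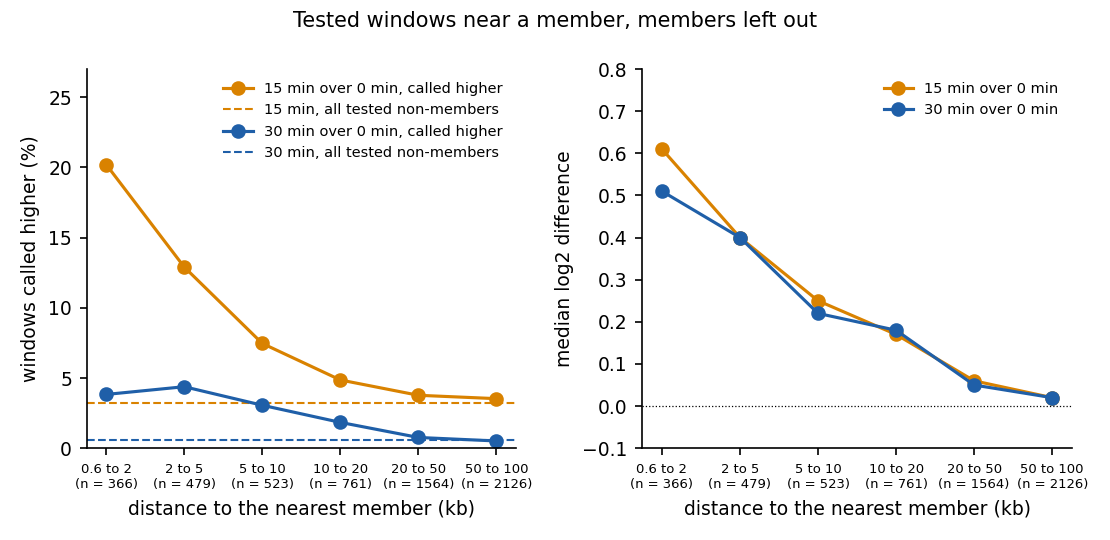
Tested windows that are no members, grouped by distance in kb to the nearest member (x axis, n per class); left, the share called higher (%) at 15 and 30 min with the share among all tested non-members as dashed lines; right, the median log2 difference from 0 min. The medians fall with distance, and 20.2% of the windows within 2 kb are called higher at 15 min and 3.53% of those 50 to 100 kb away.

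The strongest neighbour lay 4.24 kb from Rps20, a ribosomal protein gene (chr4:3827047-3827646), and 7.70 kb from a member. It had 108, 143 and 136 CPM at 0 min, 424, 517 and 415 CPM at 15 min and 253, 242 and 299 CPM at 30 min, with log2 differences of 1.84 ± 0.12 and 1.05 ± 0.12 (edgeR, adjusted p = 1.26e-10 and 9.4e-06). Both calls held without any single library. All its 30 min values lay between those of the other times. Near Rbpj, the DNA-binding effector of Notch signalling, a window rose by 1.24 ± 0.12 at 15 min and by 0.68 ± 0.13 at 30 min (edgeR, adjusted p = 3.95e-07 and 0.0051), the 30 min call being lost without 0 min library 1. Windows at Gm39273, Elk3 and Dnase1 rose by 1.49 ± 0.18, 1.33 ± 0.16 and 1.15 ± 0.14 at 15 min.

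At 30 min the next strongest neighbour lay inside Armc2, 1.13 kb from the member described above, with 0.725, 0.904 and 0.787 CPM at 0 min, 4.01, 6.46 and 1.65 CPM at 15 min and 5.37, 5.19 and 5.37 CPM at 30 min. It rose by 2.71 ± 0.47 (adjusted p = 0.00319, edgeR), from 0 min levels near the CPM of 3 counts, and was not called by DESeq2. Neighbours also rose at 30 min near 9530068E07Rik (0.59 ± 0.10) and Gm30875 (0.53 ± 0.09). Of the neighbours that fell, the strongest, 1.06 kb from Cdsn, had 27.2, 21.5 and 24.7 CPM at 0 min, 12.7, 11.4 and 13.2 CPM at 15 min and 21.1, 18.2 and 12.2 CPM at 30 min (log2 -0.95 ± 0.20 at 15 min, adjusted p = 0.00342).

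Few ends of the genes that hold members were called, in either direction. The 258 members inside genes lay in 223 genes, 116 of which had a tested window at an end that is no member. Where a gene had several, the one with the highest mean count was taken. It does not measure the rest of the gene. At 15 min 1 of these 116 windows (0.862%) rose and 4 (3.45%) fell, where 1.55% of all tested gene ends were called higher and 8.07% lower. At 30 min 1 rose (0.862%) and none fell, where 0.301% and 0.782% were called. DESeq2 called 1 higher and 1 lower at 30 min, and at an unadjusted p under 0.05 edgeR had 8 higher and 9 lower of the 116. Their median log2 differences were -0.03 and -0.01, beside -0.17 and -0.12 over all gene ends, while the 136 members inside the same genes had medians of 0.91 and 0.82, which the rule fixed. All these values are relative to library totals.

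The window that rose at 15 min was at Sulf1, a heparan sulfate sulfatase gene, with 0.544, 2.26 and 1.57 CPM at 0 min, 2.68, 5.51 and 3.77 CPM at 15 min and 4.63, 2.41 and 4.44 CPM at 30 min (log2 1.51 ± 0.47, adjusted p = 0.044, edgeR). The call was lost without 0 min library 1 or 3, 15 min library 2, or 30 min library 1 or 3, and with DESeq2. Armc2 fell by 1.34 ± 0.40 at its end on the log2 scale (adjusted p = 0.0366), with 5.26, 4.29 and 2.88 CPM at 0 min, 1.34, 1.90 and 1.65 CPM at 15 min and 3.33, 2.04 and 3.27 CPM at 30 min, whereas the window inside it was among the members with the largest ratios. That call was lost without 0 min library 1 or 2 or 15 min library 1 or 2, without the filter on low counts, and with DESeq2.

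The ends of Tmem241 (-0.70 ± 0.20), Dym (-0.62 ± 0.20) and Zfp950 (-0.59 ± 0.17) also fell at 15 min, with adjusted p of 0.0265, 0.0473 and 0.0275 (edgeR). Each of these calls was lost without 0 min library 1 or 3 or 15 min library 1 or 2, and that of Dym also without 30 min library 2 or 3. At 30 min Gm12514 rose by 0.85 ± 0.19 (adjusted p = 0.0168), a call lost without 0 min library 1 or 3 or any of the 30 min libraries. The number of host gene ends called at 15 min, 5 in all, became 0, 9 and 1 on omitting the 0 min libraries in turn, 2, 0 and 13 on omitting the 15 min libraries, and 3 on omitting 30 min library 3. The single call at 30 min became 0, 3 and 0 on omitting the 0 min libraries, 3 on omitting 15 min library 3 and 0 on omitting any 30 min library.

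The limits of the rule cut through continuous values. Members just inside the limits had a mean count of 20, a 15 over 0 min ratio of 1.501 (Btbd35f15 and Pakap), a 30 over 0 min ratio of 1.5 (Spon1) and a 15 over 30 min ratio of 1.398 (Ythdc2). Just outside, with all other limits met, were windows with a mean count of 19.89 (Ctnna3, Spire1 and Greb1l), with ratios of 1.498 (Palld and Tle4) and 1.499 (Tmem181b-ps), and with a 15 over 30 min ratio of 1.403 (Crybb3 and a window near Jarid2). Outside a single limit lay 2260 windows on the mean count, 128 on the 15 min ratio, 306 on the 30 min ratio and 91 on the ratio of both times.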

How the data were processed

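The deposited table holds raw counts per 600 bp window and library; the authors made it from PRO-seq reads aligned to mm10 and counted in windows around bidirectional regions. HISAT2, featureCounts and DESeq2 1.26.0 are named, with no settings, in the submitters' processing notes, and Tfit and muMerge in the names of the deposited files. The use of strand and the treatment of reads with several matches are not given in the sources used here. Nuclei of Drosophila S2 cells (1%) were added per the labels; their counts were not used here, so values are relative to library totals and a change of the whole library would not be seen. In bulk nuclei, fewer transcribing cells and less transcription per cell cannot be told apart.

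Members and lists were chosen with earlier results of these data known. CPM is the count per 1e6 counts of the library. edgeR 4.0.16 (filterByExpr, TMM, glmQLFit, glmQLFTest; R 4.3.3) was fitted once to all 9 libraries with time as the factor, on 54299 windows (119990 removed as low), and p-values were adjusted over all of them (Benjamini-Hochberg, 0.05). The biological coefficient of variation was 15.1%. Genes, starts and sequences are from RefSeq (GRCm38.p6, the assembly of mm10); gene end means within 1 kb of a start or finish, neighbours lie 0.6 to 10 kb from a member. Named windows were those with the largest ratios, highest levels, lowest spread, largest ratios at gene ends or on the X chromosome and highest 30 over 15 min ratios, the largest groups, windows at genes of the lists and at the limits of the rule, and the neighbours and host gene ends with the smallest adjusted p; the Sox2, miRNA and 100 kb counts were chosen after values were seen. Alternatives were DESeq2 size factors, no filter, a replicate block, DESeq2 1.42.0, other limits and leaving out each library. Replicates differed by more than sampling noise (chi-square per degree of freedom 2.26 to 3.76). Some member windows are not reported here by name.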

Additional observations from a re-analysis of the deposited data

How the results depend on the processing

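The 795 members became 1391 with a fold limit of 1.3, 162 with a limit of 2, 1297 with a mean count of at least 10 and 445 with at least 40. Other scalings and limits gave 670 to 1077, the highest with factors from gene ends alone, an alternative chosen after seeing the data, which kept 783 of the 795; TMM scaling kept 784. Leaving out 1 library gave 725 to 1346. In the fit over all windows, leaving out 1 library gave 2123 to 6412 calls at 15 min (4479 with all), 171 to 1510 at 30 min (945 with all) and 154 to 548 between 30 and 15 min (382 with all), with fewer samples in each fit. Higher calls among neighbours ran from 65 to 217 at 15 min and from 8 to 83 at 30 min, and calls at host gene ends from 0 to 13 and from 0 to 3.

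At 15 min 3 host gene ends were called by DESeq2. At 30 min 2 were called with DESeq2 size factors, with DESeq2 and with the replicate block, against 1. Other distances, the 0.5 kb limit and the other settings kept each count of neighbours called higher, and of calls over all windows, within 1.5 times its value. Neighbours called lower, 6 at 15 min and 2 at 30 min, numbered 1 and 1 within 5 kb, 19 and 4 within 20 kb and 5 and 1 by DESeq2. Whether replicate numbers pair the libraries was left undecided. Same-numbered libraries correlated at r = -0.0479 to 0.175 and other pairs of different times at r = -0.199 to 0.102. Not every library correlated best with its own number. With the replicate block 4804, 1107 and 421 windows were called in the 3 comparisons and 601 and 362 members at 15 and 30 min. At 441 members the mean was below 10 CPM, where counting limits a single ratio most.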
